A study of Glycyrrhiza uralensis with 6 samples.

Results

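A set of 21 unigenes of suspended licorice cells (Glycyrrhiza uralensis Fisch) was present in every library. By the sample titles, each was at least 16-fold lower after methyl jasmonate (MeJA) than in the control. The sample names stored with the counts give the opposite direction. A unigene is a transcript locus assembled from the reads without a genome, so the unigenes have no chromosome position. The 21 were selected on the measured counts of the deposited files, out of 116907 unigenes in all and 29362 with at least 1 counted fragment in each of the 6 libraries. A member had to have a lowest CPM (counts scaled to a library total of 1000000) in the 3 control libraries of at least 16 times the highest CPM in the 3 MeJA libraries, and a mean CPM below 1000 in both groups. Their levels and folds are therefore descriptions of what was selected and carry no test.

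The cells came from callus of young seedling explants grown in suspension with added auxin and cytokinin. By sample title, MeJA libraries 1 to 3 were made from cells given 0.5 μL of MeJA solution per mL. Control libraries 1 to 3 were made from cells given 0.4 μL of absolute ethanol per mL, with 9 h of culture in both. The volumes are of liquid added and do not give the MeJA concentration. The question behind the comparison is how the transcriptome of licorice cells changes after MeJA. No source states that the libraries of a group came from separate cultures, so the spread between them may be technical.

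Jasmonates are lipid-derived plant hormones. In Arabidopsis, jasmonate joined to isoleucine binds the receptor COI1, which leads to the breakdown of JAZ repressors and frees transcription factors such as MYC2. MeJA is widely added to plant cell cultures to raise secondary metabolites, flavonoids and triterpenoids in the case of licorice, and in Arabidopsis cells it is also known to lower transcripts of the cell cycle. The files pair no unigene with a gene name, so the 21 are given by identifier, their functions are unknown here and the label of suspended cells could not be set against marker genes.

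Library totals ran from 17556951 to 20639580 counted fragments in MeJA and from 17041505 to 21670945 in control. The 10 most counted unigenes took between 2.73% and 4.12% of the counts in MeJA libraries, against 8.66% to 8.98% in control libraries. In 6 of 6 libraries the sample name found in the table has the letter of the other group, not that of the title. Groups here follow the titles, and every direction given turns round if the inner names are right. Counted fragments per sequenced read, with read totals from the sequencing summary in the supplement, varied over the 6 libraries by 15.8% (coefficient of variation) when matched by title, and by 0.616% when matched by the inner name. The inner names thus gave by far the more even ratio, so the direction by title is in doubt. Throughout, MeJA and control name the groups by title only, and lower or higher in MeJA is not a shown effect of the treatment.

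Together the 21 unigenes took 0.00163%, 0.00387% and 0.00220% of the counts in MeJA libraries 1 to 3, against 0.219%, 0.214% and 0.125% in control libraries 1 to 3. The means were 0.00256% ± 0.00116 in MeJA and 0.186% ± 0.0531 in control (SD, n = 3 each). Every one of the 21 stood apart between the groups, which the rule fixes. In such bulk libraries, fewer cells of a kind and less RNA per cell cannot be told apart. In the control libraries the member counts ran from 28 to 16206 fragments, and 19 of the 21 members had at least 100 fragments in each of them. In the MeJA libraries they ran from 1 to 383 fragments, with 8 members at 10 or more in each library and 5 members at no more than 3 in any.

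**Figure D1:**
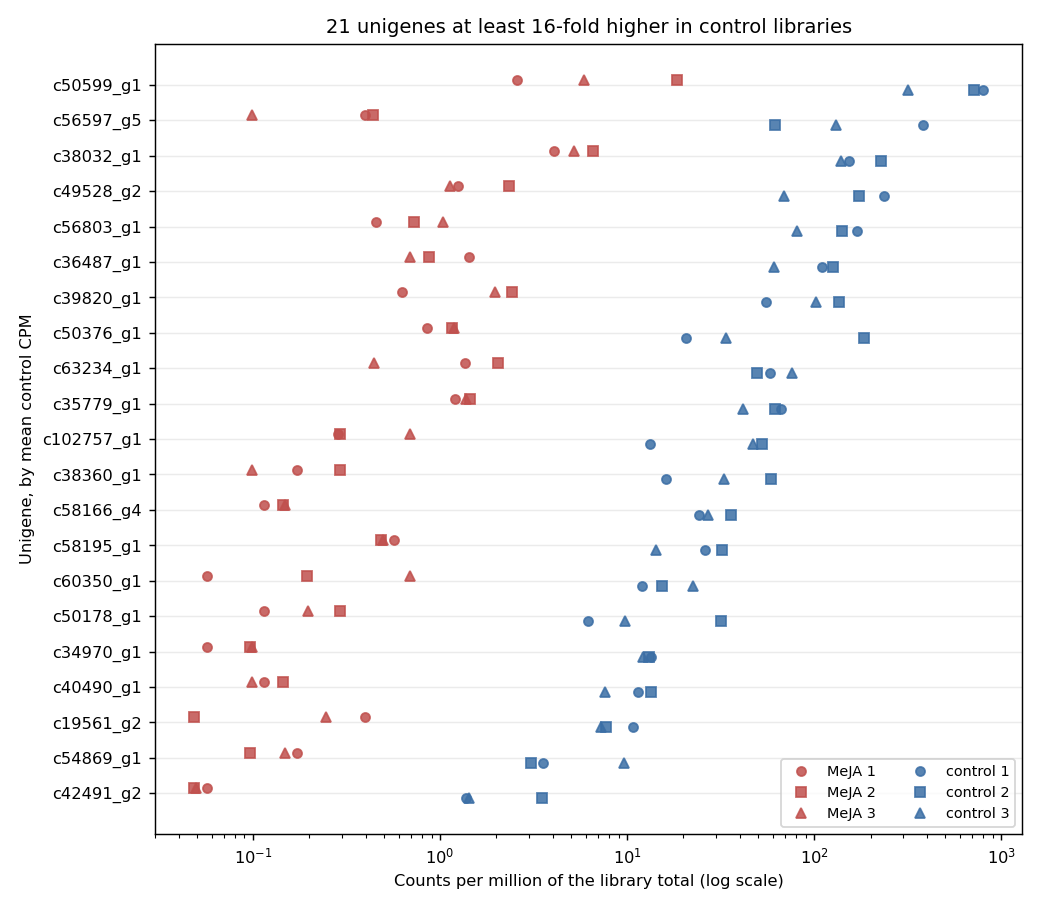
CPM of the 21 members (rows, ordered by mean control CPM) in the 6 libraries, on a log axis, with MeJA libraries in red, control libraries in blue and a symbol for each replicate number. All red symbols lie left of all blue symbols in a row, as the rule requires, and the width of the blue cluster differs between rows, from 1.10-fold in c34970_g1 to 8.90-fold in c50376_g1.

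Unigene c50599_g1 was the most abundant member in the control libraries. It had 2.56, 18.6 and 5.86 CPM in MeJA libraries 1 to 3, against 799, 713 and 319 CPM in control libraries 1 to 3. On the FPKM scale, which divides by the length of the unigene, it averaged 10.3 in MeJA and 696 ± 292 in control (SD, n = 3). It is also the member nearest to the threshold, because MeJA library 2 was 7.24-fold above MeJA library 1 and its lowest control CPM was only 17.2 times its highest MeJA CPM. Between 25.6% and 36.5% of all member counts in a control library came from this unigene.

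The next members by FPKM in control were c58195_g1, c36487_g1 and c38032_g1. Unigene c58195_g1 had 0.570, 0.485 and 0.493 CPM in MeJA libraries 1 to 3, from 10 fragments in each, and 26.2, 32.1 and 14.3 CPM in control. It is the shortest member, and per length its control level was 318 ± 118 FPKM (SD, n = 3). For c36487_g1 the values were 1.42, 0.872 and 0.690 CPM in MeJA, against 110, 127 and 61.0 CPM in control, with a control level of 241 ± 82.5 FPKM (SD, n = 3). Unigene c38032_g1 had 4.04, 6.54 and 5.22 CPM in MeJA, against 153, 227 and 139 CPM in control. Its control level was 177 ± 47.9 FPKM (SD, n = 3), and its log2 fold change of -5.63 (MeJA minus control, SE 0.43) was the smallest in size of the 21.

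Unigenes c49528_g2, c39820_g1 and c56597_g5 had control levels of 163 ± 86.8, 155 ± 64.0 and 153 ± 135 FPKM (SD, n = 3 each), which did not differ beyond their spread. Unigene c49528_g2 had 1.25, 2.33 and 1.13 CPM in MeJA, against 237, 174 and 68.7 CPM in control. For c39820_g1 the MeJA values were 0.627, 2.42 and 1.97 CPM and the control values 54.9, 135 and 103 CPM, so that library 1 was the lowest in both groups. Unigene c56803_g1 followed, with 0.456, 0.727 and 1.03 CPM in MeJA and 170, 141 and 81.4 CPM in control, a control level of 99.3 ± 30.9 FPKM (SD, n = 3).

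The widest gaps between the groups were in c58166_g4, c56597_g5 and c34970_g1, the 3 members whose lowest control CPM was more than 100 times the highest MeJA CPM. Unigene c58166_g4 had 2, 3 and 3 fragments in MeJA libraries 1 to 3, against 491, 613 and 587 in control libraries 1 to 3. Its pooled CPM ratio, control over MeJA, was 210 (95% exact interval 106 to 486, counting error only). Unigene c56597_g5 had 7, 9 and 2 fragments in MeJA and 7698, 1049 and 2824 in control, a pooled ratio of 637 (403 to 1076) that was the highest of the 21. This unigene varied 6.16-fold between the control libraries, so the lowest of them, control 2, set its ratio of 141 between the nearest libraries. Unigene c34970_g1 had 1, 2 and 2 fragments in MeJA and 271, 222 and 263 in control, a pooled ratio of 150 (64.0 to 463). Its control values, 13.4, 13.0 and 12.1 CPM, were the most even of all members.

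Among the members of middle level, c50376_g1, c63234_g1 and c35779_g1 are the longest. Unigene c50376_g1 had 0.854, 1.16 and 1.18 CPM in MeJA, against 20.8, 185 and 33.9 CPM in control. Control library 2 alone was thus far above the other libraries of its group, and the 8.90-fold range was the widest of the 21. Unigene c63234_g1 had 1.37, 2.03 and 0.443 CPM in MeJA and 58.1, 49.4 and 75.7 CPM in control, with control 3 the highest. Unigene c35779_g1 was even in both groups, with 1.20, 1.45 and 1.38 CPM in MeJA and 66.7, 61.8 and 41.7 CPM in control, and had the smallest standard error of the 21 (log2 fold change -5.96, SE 0.38).

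Unigenes c102757_g1, c38360_g1 and c50178_g1 shared an order in control, with library 2 the highest and library 1 the lowest. Unigene c102757_g1 had 0.285, 0.291 and 0.690 CPM in MeJA, against 13.3, 52.7 and 47.2 CPM in control. Unigene c38360_g1 had 3, 6 and 2 fragments in MeJA and 327, 998 and 718 in control, a pooled ratio of 184 (103 to 370). For c50178_g1 the fragments were 2, 6 and 4 in MeJA and 126, 540 and 212 in control, a pooled ratio of 72.6 (41.3 to 141). In all 3 the control libraries differed more than 3-fold among themselves.

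The remaining 5 members were c60350_g1, c40490_g1, c19561_g2, c54869_g1 and c42491_g2. Unigene c60350_g1 had 1, 4 and 14 fragments in MeJA and 243, 263 and 488 in control. Its 12.1-fold range in CPM between the MeJA libraries was the widest of any member, and library 3 was the highest in both groups. Unigene c40490_g1 had 2, 3 and 2 fragments in MeJA and 233, 228 and 164 in control, a pooled ratio of 88.5 (42.7 to 221). Unigene c19561_g2 had 7, 1 and 5 fragments in MeJA and 218, 131 and 158 in control, a pooled ratio of 38.7 (22.4 to 73.1). Both had at least 7 CPM in each control library. Unigene c54869_g1 had 3, 2 and 3 fragments in MeJA and 72, 52 and 208 in control, a pooled ratio of 41.2 (20.6 to 96.1). It had the lowest control level of the 21 per length, 6.02 ± 3.75 FPKM (SD, n = 3). Unigene c42491_g2 had the fewest fragments, with 1 in each MeJA library and 28, 60 and 31 in control, a pooled ratio of 39.3 (13.1 to 193). It is the 1 member of the 21 whose interval reached below 16. The intervals hold counting error only, and the rule itself put every pooled ratio at 16 or above. They are therefore no test of that fold.

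Over the 21, the lowest control CPM was a median of 24.3 times the highest MeJA CPM, with 7 members at 32 times or more and 6 members under 20 times. The log2 fold changes of the edgeR fit ran from -9.74 to -5.63, with a median of -6.87, while all 24646 tested unigenes had a median of -0.01. Their standard errors had a median of 0.65 against 0.53 over all tested unigenes. By edgeR's quasi-likelihood test (Benjamini-Hochberg adjusted p under 0.05) 21 of the 21 were called lower in MeJA, beside 12.8% of all tested unigenes called in that direction. The rule used this contrast, so nothing is read from that count.

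**Figure D2:**
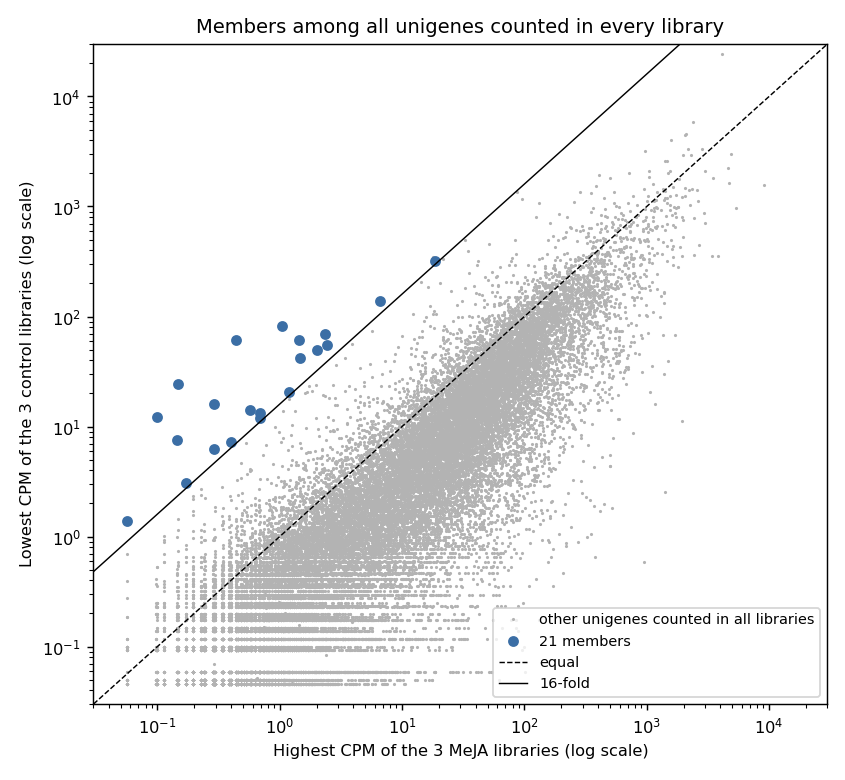
Highest CPM of the 3 MeJA libraries (x axis) against lowest CPM of the 3 control libraries (y axis), both on log axes, for the 29362 unigenes counted in all 6 libraries. The 21 members (blue) lie on or above the 16-fold line over the range from 0.0570 to 18.6 CPM in MeJA, and 1 unigene over the level limit (grey) also lies above it.

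Just inside the threshold were c50599_g1, c60350_g1 and c50376_g1, at 17.2, 17.4 and 17.6 times. Just outside were c54165_g1, c60232_g1 and c5286_g1, at 15.6, 15.3 and 14.7 times. Unigene c54165_g1 had 7.58, 21.6 and 7.58 CPM in MeJA libraries and 620, 1183 and 335 CPM in control libraries. Unigene c60232_g1 had 9.57, 18.9 and 32.7 CPM in MeJA and 956, 935 and 499 CPM in control, so the threshold does not part high from low unigenes. The limit on the mean CPM left out 1 further unigene, c54790_g1, with a mean of 8.53 CPM in MeJA and 1178 CPM in control. The condition of at least 1 fragment in every library took out far more. In all, 3045 unigenes met the 16-fold condition, of which 3023 had no fragment in at least 1 MeJA library. Of these 3023, 196 had at least 10 fragments in each control library. In 2969 of the 3045 no MeJA library had a fragment. There any count in each control library meets the condition, and no fold is measured.

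Per length, the members were mostly high in the control group and low in the MeJA group. Among the unigenes counted in all libraries, their median percentile by mean FPKM was 7.13 in MeJA and 88.0 in control. In MeJA 19 of 21 lay below the median unigene, and in control 19 of 21 lay above the upper quartile. The median member had 0.503 FPKM in MeJA and 35.9 FPKM in control, beside 5.68 and 3.40 FPKM for the median unigene counted in all libraries. The fold and the 1-fragment condition partly fix this pattern.

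The control replicates did not keep the same order in all 21 members, though library 2 was most often the highest. The highest control library was number 1 in 7 members, number 2 in 11 and number 3 in 3, whereas among all tested unigenes control 1, 2 and 3 were the highest in 48.2%, 24.1% and 27.7%. Scaled by TMM (trimmed mean of M-values, which allows for a few unigenes taking much of a library), the numbers were 3, 15 and 3 members, against 36.8%, 32.5% and 30.6% of tested unigenes. The order of the control libraries was 2, 3, 1 in 7 members, 1, 2, 3 in 6 and 2, 1, 3 in 4. The remaining orders were held by 1, 2 and 1 members. In MeJA the highest library was number 1 in 5 members, number 2 in 10 and number 3 in 6.

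The median spread between replicates was near that of all tested unigenes. The rule used the lowest control and the highest MeJA value and so bears on this spread, and nothing is read from the likeness. The coefficient of variation over the 3 libraries had a median of 39.2% in MeJA and 37.6% in control, with 35.5% and 39.1% over all tested unigenes. Counting error alone would give the members a median of 34.6% in MeJA, where they had few fragments, and 3.70% in control. In control, 13 of 21 members differed more than 2-fold and 7 more than 3-fold between the highest and the lowest library.

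The effective length, which the rule did not use, was recovered for all 21 members from their counts and FPKM. It ran from 74.9 bases in c58195_g1 to 2272 bases in c50376_g1, with a median of 876 bases against 1068 over the tested unigenes. With the tested unigenes split at their length quartiles, the classes from the shortest to the longest held 6, 9, 4 and 2 members. Unigene c35779_g1 had 1953 bases and c63234_g1 had 1724 bases, and these with c50376_g1 were the 3 longest. In 15 of the 21 the effective length differed by less than 5% between the control libraries. Unigene c54869_g1 differed most, by 1.16-fold, and on the FPKM scale it was the 1 member to fall below 16 times, at 15.9.

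An assembly component joins unigenes built from connected sequence, and the first part of the identifier names it. No component held 2 members, so the 21 unigenes come from 21 separate components. Another unigene was present in the component of 8 members (38.1%, beside 35.3% of tested unigenes), which gave 22 other unigenes. Of these, 15 were tested, 5 were called lower and 1 higher in MeJA, and 9 were not called. Of all 24646 tested unigenes, 12.8% were called lower and 3514 were called higher. The difference from these shares was not tested, as unigenes are not replicates. All 126 member counts were whole numbers. The same held for most tested unigenes, as only 2.32% of them had at least 1 count that was not whole.

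**Figure D3:**
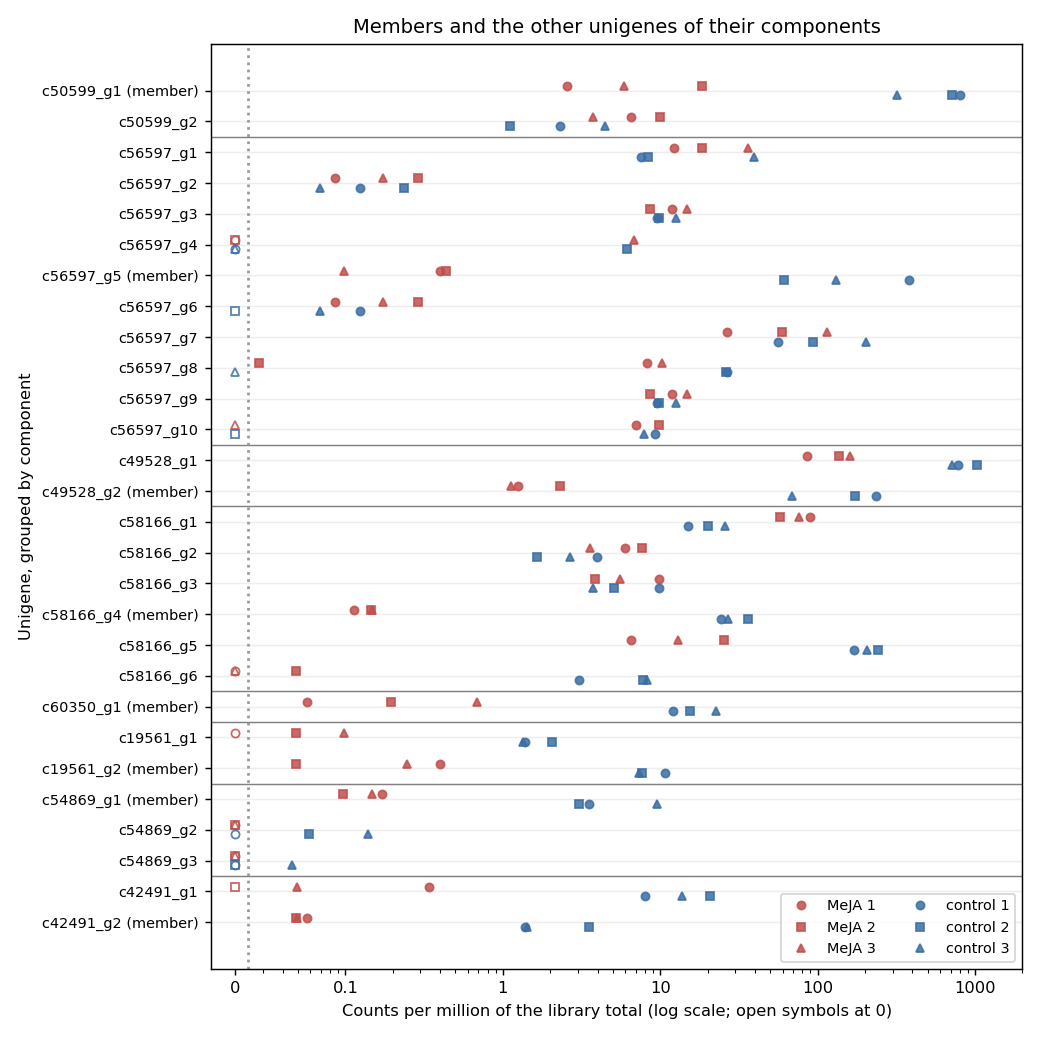
CPM in the 6 libraries (log axis, open symbols for 0) of the 8 members with another unigene in their component and of those other unigenes with any count, grouped by component. In c58166 the member and 2 other unigenes lie to the right in control (blue), while c58166_g1 lies to the right in MeJA (red).

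Component c58166 held changes in both directions. Beside the member c58166_g4, unigene c58166_g5 averaged 14.9 ± 9.58 CPM in MeJA and 206 ± 35.4 CPM in control (SD, n = 3 each), a log2 fold change of -4.39 (SE 0.53, adjusted p = 0.0015 from edgeR). Unigene c58166_g6 had 0, 1 and 0 fragments in MeJA and 62, 133 and 179 in control. Unigene c58166_g1, the longest of the component at 4713 bases, was higher in MeJA, with 74.3 ± 15.6 CPM in MeJA and 20.3 ± 5.31 CPM in control (SD, n = 3 each, log2 fold change 1.28, SE 0.35, adjusted p = 0.0238 from edgeR). Unigenes c58166_g2 and c58166_g3 were not called, with log2 fold changes of 0.50 (SE 0.48) and -0.49 (SE 0.50).

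In 3 further components the other unigene was lower in the MeJA group, as was the member. Unigene c49528_g1 was abundant in both groups, with 128 ± 38.8 CPM in MeJA and 839 ± 165 CPM in control (SD, n = 3 each). Its log2 fold change of -3.29 (SE 0.45, adjusted p = 0.00196 from edgeR) was smaller in size than the -7.22 (SE 0.58) of the member c49528_g2. Unigene c42491_g1 had 6, 0 and 1 fragments in MeJA and 162, 354 and 300 in control and stayed out of the set for its single 0. Unigene c19561_g1 had 0, 1 and 2 fragments in MeJA and 28, 35 and 29 in control.

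The components of c50599_g1 and c56597_g5 held no other called unigene. Unigene c50599_g2 had 114, 206 and 76 fragments in MeJA and 47, 19 and 96 in control, with overlapping groups in fragments. In component c56597, 10 other unigenes were listed. The most counted, c56597_g7, averaged 66.9 ± 44.6 CPM in MeJA and 117 ± 75.6 CPM in control (SD, n = 3 each, log2 fold change -1.37, SE 0.62, adjusted p = 0.126 from edgeR), so the 637-fold pooled ratio of c56597_g5 was not seen beside it. With counts summed over each component, 17 members still met the rule through their component. The sums of c50599, c49528, c58166 and c56597 fell to 11.3, 4.82, 2.04 and 1.09 times.

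The same rule turned round found 61 unigenes at least 16-fold higher in MeJA. They were longer, with a median of 1357 bases against 876 for the 21, and had a median of 18.5 FPKM in the group where they were high, against 35.9. Their median ratio of 24.2 was close to the 24.3 of the 21. These differences were not tested, as unigenes are not replicates.

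The imbalance of 61 against 21 rests on how the libraries are scaled. TMM factors were 1.13 to 1.28 for MeJA and 0.748 to 0.919 for control libraries, and without them the tested unigenes had a median log2 fold change of 0.56 in place of -0.01. The median of the members was then -6.21 in place of -6.87. With TMM-scaled CPM, 39 unigenes were higher in MeJA and 39 in control, and the ratios of the 21 members ran from 21.3 to 242. Since every factor was higher in MeJA than in control libraries, TMM raises each of these ratios, and that the 21 still met the rule was fixed by the factors. At a threshold of 64-fold the numbers were 4 higher in MeJA and 4 in control by file totals, and 1 and 7 by TMM. The balance between the directions thus moved with the scaling.

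**Figure D4:**
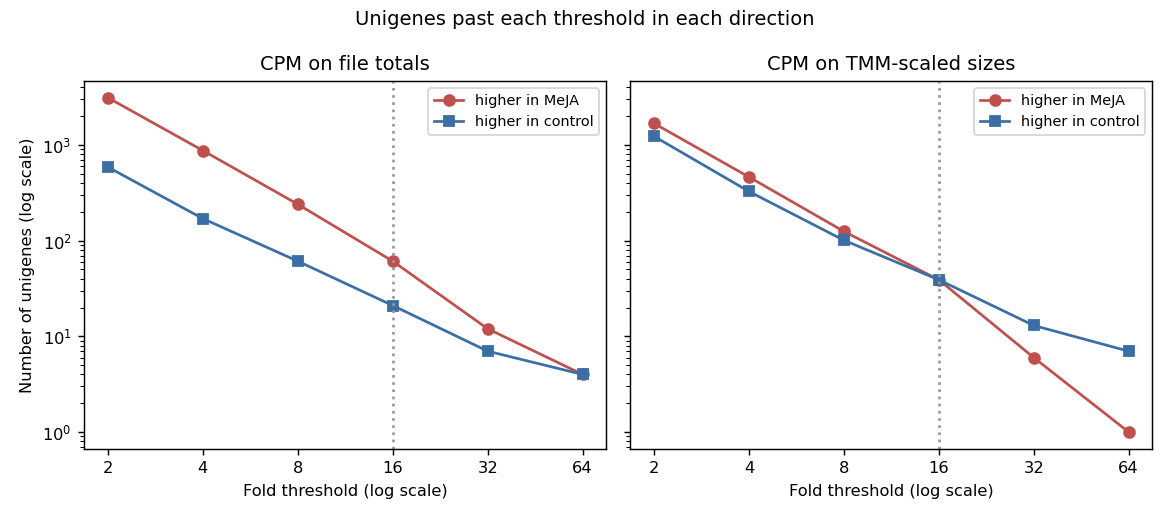
Number of unigenes (log axis) whose libraries are separated by at least the fold on the x axis (log scale), higher in MeJA (red) or in control (blue), with CPM on file totals (left) and on TMM-scaled sizes (right). At 16-fold (dotted line) the numbers are 61 higher in MeJA and 21 in control on the left, and 39 and 39 on the right.

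Choosing on 2 replicate numbers and reading the third gives values that the choice did not use. Without the libraries numbered 1, the rule found 46 unigenes, and in the pair left out all 46 were higher in control than in MeJA, as were 37.4% of tested unigenes. Of the 46, 30 were at least 16-fold higher in that control library, 9 were less than 16-fold higher and 7 had no fragment in the MeJA library. Without the libraries numbered 2 it found 48, of which 48 were higher in the left-out control library (30.4% of tested unigenes), 34 of them by at least 16-fold and 11 by less. Without those numbered 3 it found 76, of which 76 were higher in the left-out control library (34.0% of tested unigenes), 33 by at least 16-fold and 18 by less, with 25 at no fragment in MeJA. The median ratios in the left-out pairs, over unigenes with a fragment, were 37.8, 36.0 and 28.7. Each list held the 21 members, whose direction and 16-fold size in the left-out pair the rule had already fixed. The counts at 16-fold and the median ratios include them. The libraries of a group may also not be separate cultures, so the left-out pair is not shown to be independent. The counts therefore describe the lists and support nothing about the 21.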

How the data were processed

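Poly(A)-selected RNA of 6 libraries was sequenced and assembled de novo by the authors, and RSEM gave the deposited expected counts per unigene. The deposited FPKM values are the authors' own length and depth normalization of them. For the assembler, the aligner and their versions: not given in the sources used here. Members, lists and tests were chosen with earlier results of these data known.

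CPM used unrounded counts over file totals. Counts rounded to whole numbers went to edgeR 4.0.16 in R 4.3.3 (TMM, filterByExpr with a minimum count of 10 and total of 15, glmQLFTest, no covariates). Standard errors are the absolute log2 fold change over the square root of F. Alternatives used DESeq2 1.42.0 and limma 3.58.1, and the fits were tested on simulated data. Effective length came from counts of 10 or more with FPKM of 0.3 or more. Intervals of pooled ratios are exact binomial at 95%. Python 3.11.15 with pandas 2.3.3, numpy 2.4.6, scipy 1.17.1 and matplotlib 3.10.9 was used.

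No replicates were duplicates (chi-square per degree of freedom at least 86.8). Deviations from group means correlated at 0.255, 0.279 and 0.324 between libraries of the same number and at -0.395 to 0.123 otherwise. Deviations cancel out within a group, so these correlations are tied to each other. Pairing of the libraries by number is thus possible but not settled by this check. The values given come from the fit without the block, and the fit with the replicate block was run as an alternative. Read totals per library came from the study's supplement and entered only the check of library names.

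The rule for named unigenes took the 6 highest members in control CPM, the 6 largest ratios, the 3 just inside and outside the threshold, the 3 longest, the 3 most and 3 least variable in control, unigenes of components with 2 or more members (none) and members beside a unigene called in the opposite direction. It named 16 members. The other 5 were added after the values were seen.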

Additional observations from a re-analysis of the deposited data

How the results depend on the processing

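The number of members depends on the rule. In place of 21, the rule gave 61 at 8-fold, 7 at 32-fold, 39 with TMM and 41 with RLE scaling. It gave 11 and 8 with a minimum of 5 and 10 counts, and 3044 with none. Most of the 3044 had no fragment in any MeJA library, where no fold is measured. FPKM gave 20, no limit on mean CPM 22 and sums per component 18. Leaving out 1 library gave 25 to 45 (without MeJA 1, 2 and 3, 32, 39 and 45, and without control 3, 41), and leaving out both of a number, chosen after the data were seen, 46 to 76, since fewer conditions remain. The 21 stay in the set by construction when libraries are left out. They were called lower in MeJA in every fit run, the replicate block included, which the selection on this contrast fixes, so nothing is read from it. The median log2 fold change of members, -6.87, was -6.21 with total counts, -4.73 with limma on log2(FPKM + 1), -6.71 with the replicate block and -6.93 to -6.28 with 1 library left out, the last without control 2.

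Over all unigenes 6663 were called (3514 higher, 3149 lower in MeJA), and 8350 with the replicate block. Those lower numbered 1820 with total counts (6104 higher, so that 77.0% of calls were higher in place of 52.7%) and 1854 with limma (6232 higher). The majority turned with no filter (5049 lower, 4656 higher) and with DESeq2 (4449 lower, 4018 higher). With 1 library left out, calls ran from 3787 (without MeJA 1) to 6803 (without control 1), and those lower from 1983 (without MeJA 1) to 3174. Without control 2 they were 3847 and 1989. The cause was not tested. Depth limits the MeJA side, where 10 members had at most 3 fragments in at least 1 library.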

Other observations

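Within component c56597, beside the member c56597_g5, 1 pair of unigenes was counted in alternate libraries of both groups. Unigene c56597_g4 had 138 fragments in MeJA 3 and 105 in control 2, and 0 in the other libraries. Unigene c56597_g10 had 0 in those libraries, and 123 and 202 fragments in MeJA 1 and MeJA 2 with 187 and 172 in control 1 and control 3. Their effective lengths were 630 and 624 bases. Unigenes c56597_g3 and c56597_g9 had equal counts in all 6 libraries, from 168.5 to 302. These patterns were noticed in the data and were not tested.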
